A study of Homo sapiens with 32 samples.

Results

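Multidrug resistance transporters of the ATP-binding cassette (ABC) family use ATP to move drugs, drug conjugates and natural metabolites across membranes, most of them out of the cell. The 10 listed genes were examined: ABCB1, ABCB4, ABCC1, ABCC2, ABCC3, ABCC4, ABCC5, ABCC6, ABCC10 and ABCG2. They were chosen by name and are 10 of the 48804 genes in the count table, of which 33132 had at least 1 count. ABCB1 (P-glycoprotein) and ABCG2 export a wide range of hydrophobic drugs and both are known to carry dasatinib. ABCC proteins export glutathione, glucuronide and sulfate conjugates, and several also carry bile acids or cyclic nucleotides. ABCB4 moves phospholipid in bile secretion and is named here because of its kinship with ABCB1.

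The study treated MDA-MB-468 cells, an established triple-negative breast cancer line, with salinomycin (Sal, a polyether ionophore antibiotic) and dasatinib (Das, an inhibitor of Src-family and ABL kinases), and sequenced RNA libraries made with an Illumina TruSeq kit. Control cells received PBS. The study made its drug stocks in DMSO, so treated and control groups may also differ in vehicle, which was not tested. It chose the doses from the cytotoxicity of each drug in this line. The other groups received 0.5 µM Sal, 15 µM Das, or both together (S + D, 15.5 µM in total), each for 24 or 72 h. Every one of the 8 groups had 4 libraries, 3 numbered replicates and 1 whose label carries no number, and the table held 25692561 to 42769687 counts per library. All groups come from 1 cell line, so they describe its response and no other.

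The unnumbered libraries deviated from their group means together, as pairs of them correlated at 0.690 to 0.762 at 24 h and 0.633 to 0.724 at 72 h in their deviations across genes. Each result is therefore also given from the 3 numbered libraries per group where the call changes. Of the markers of the line, EGFR was measured at 2791 to 5921 CPM (counts scaled to the size of the library) and EPCAM at 206 to 393 CPM, whereas KRT6A reached only 2.1 CPM. PGR was at 0 in 25 of 32 libraries, ESR1 was at 3.64 to 12.0 CPM and ERBB2 at 56.8 to 192 CPM. Of 13 matched markers of other cell types, COL1A1 reached 120 CPM and the other 12 stayed at or below 2.22 CPM. COL3A1, the fibroblast collagen that usually accompanies COL1A1, was at 0 in 27 libraries. The summed level of these markers of other cell types, most of it COL1A1, was 25.4 to 33.8 CPM in control at 72 h and 56.5 to 78.6 CPM in Sal. It was 35.05 to 70 CPM in Das and 69.3 to 123 CPM in S + D. The summed level of the line's own markers, most of it EGFR, was 7722 to 8483 CPM in control at 72 h and 5749 to 6052 CPM in Sal. It was 6399 to 7993 CPM in Das and 4580 to 6042 CPM in S + D. The part of either sum in the results below was not tested. In bulk RNA, fewer expressing cells and less RNA per cell cannot be told apart.

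The 250 bases upstream of the annotated start are shown for ABCC1, which fell at 72 h, and for ABCC2 and ABCC4, which rose with Sal and S + D, because these members moved in opposite directions. Sequences are from GRCh37, 5′ to 3′ on the gene's strand, and capitals mark the GC box GGGCGG on either strand, overlapping copies included. They lie at chr16:16043223-16043472 (plus strand) for ABCC1, chr10:101542147-101542396 (plus strand) for ABCC2 and chr13:95953706-95953955 (minus strand) for ABCC4.
ABCC1: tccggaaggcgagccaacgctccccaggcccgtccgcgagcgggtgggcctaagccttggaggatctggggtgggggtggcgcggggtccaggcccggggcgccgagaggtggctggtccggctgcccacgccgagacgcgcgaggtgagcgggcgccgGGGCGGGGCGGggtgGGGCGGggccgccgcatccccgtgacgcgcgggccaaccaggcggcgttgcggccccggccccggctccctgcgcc
ABCC2: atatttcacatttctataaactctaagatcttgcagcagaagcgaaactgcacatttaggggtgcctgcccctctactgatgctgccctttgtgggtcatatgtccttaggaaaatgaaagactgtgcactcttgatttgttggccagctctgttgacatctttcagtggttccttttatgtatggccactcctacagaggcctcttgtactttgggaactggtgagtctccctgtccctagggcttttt
ABCC4: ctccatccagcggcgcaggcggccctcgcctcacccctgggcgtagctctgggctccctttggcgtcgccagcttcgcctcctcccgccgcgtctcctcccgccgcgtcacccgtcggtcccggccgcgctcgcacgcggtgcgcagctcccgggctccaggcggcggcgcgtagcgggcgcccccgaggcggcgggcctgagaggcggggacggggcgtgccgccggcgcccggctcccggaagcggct
ABCC1 held 3 GC boxes in this window and ABCC2 and ABCC4 held 0, while 59.1% of 19881 protein-coding promoters held at least 1. ABCC1 (80.8% G and C) and ABCC4 (80.4%) lay above the median of 63.2% over all promoters, and ABCC2 (45.6%) lay below it. CCAAT (in 34.2% of promoters) and the E-box CACGTG (in 7.9%), searched on both strands, occurred in none of these 3 windows. ABCC2 held TATAAA, the letters of the TATA box, near the upstream end of its window and far from the start. These letters occur anywhere in the window in 9.3% of promoters. ABCC4 held TGACNNNGC, the core of the antioxidant response element, present in 11.3%. GCGTG, the core of the xenobiotic response element, is present in 40.3% of promoters and occurred 2 times in ABCC4 and 1 time in ABCC1. These matches describe letters in the windows and were tested for nothing further.

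At 72 h, ABCC3 (MRP3, an exporter of glucuronides and bile acids) fell in every treated group and ABCC1 (MRP1, the main glutathione-conjugate exporter of many cancer cells) fell by smaller amounts. ABCC4 (MRP4, which also carries cyclic nucleotides and prostaglandins) and ABCC2 (MRP2, a conjugate exporter of apical membranes) rose with Sal and with S + D. ABCG2 was called higher in all 3 treated groups, but it had 0 to 2 counts in each control library and passed the filter on low counts only through the treated ones, so the call was largely fixed by the filter. The remaining members did not pass the test, except ABCC6 with Das. Tests are edgeR quasi-likelihood tests with p-values adjusted over all genes of a time point, and a gene is called at an adjusted p under 0.01.

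**Figure D1:**
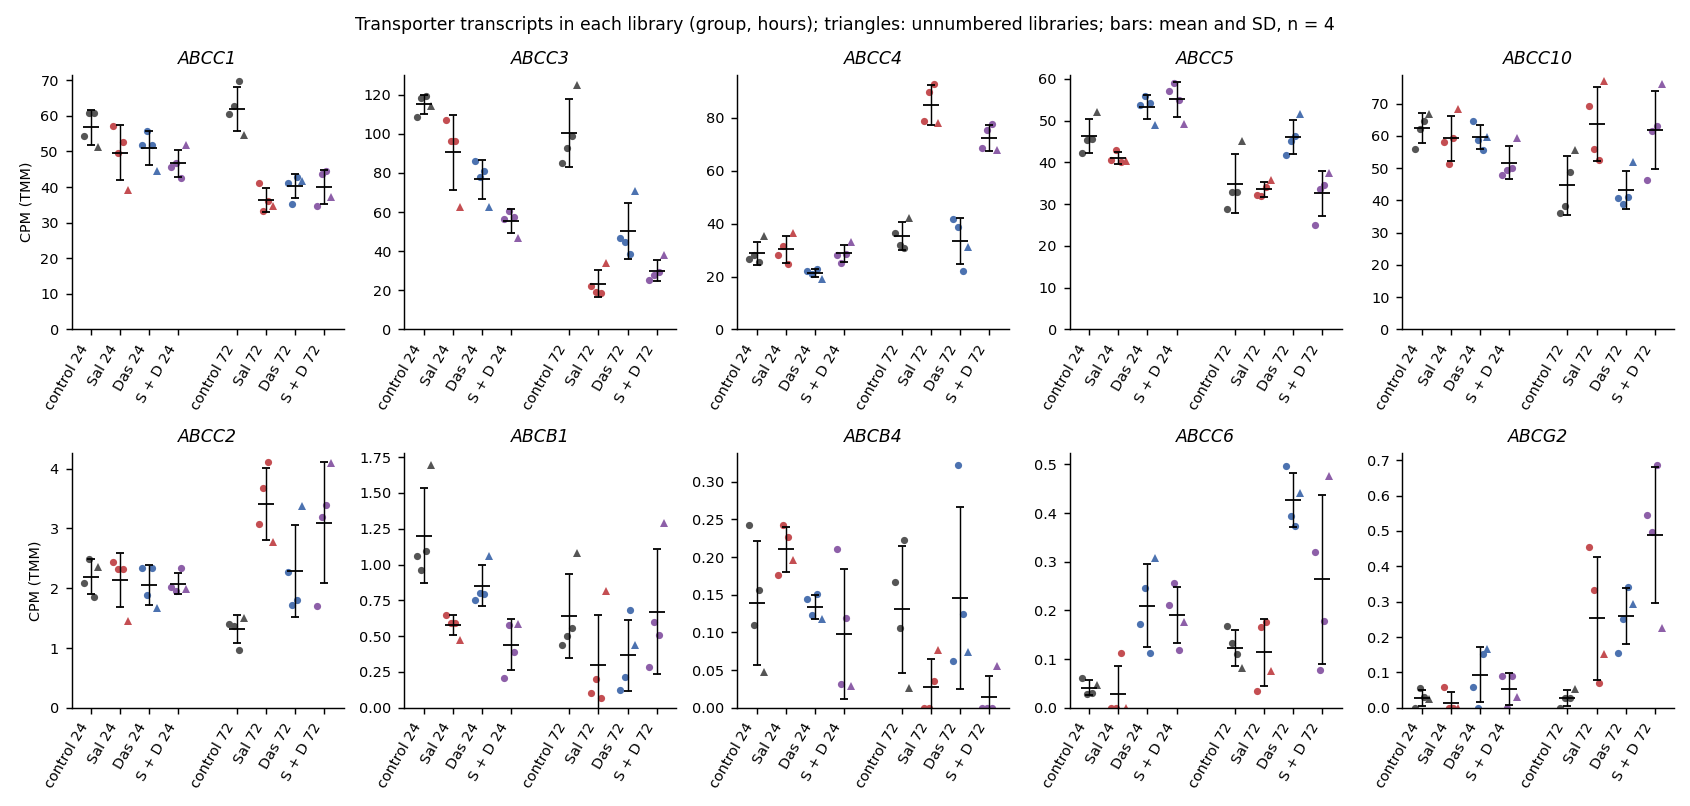
Level of each of the 10 transporters in every library, in CPM with TMM factors, by group and hours. Triangles are the unnumbered libraries, circles the numbered replicates, and bars the mean and SD of 4 libraries; ABCC3 is lower in all treated groups and ABCC4 higher with Sal and S + D at 72 h, while ABCB4, ABCC6 and ABCG2 stay below 1 CPM.

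ABCC3 was the most abundant member per kilobase of exon in control cells, at 12.0 ± 0.493 CPM per kb at 24 h (SD, n = 4) and 10.4 ± 1.80 at 72 h. Its gene lies at chr17:48712138-48769614 on the plus strand of GRCh37. Per-library values below are given in the order replicate 1, 2, 3 and unnumbered. At 72 h the control libraries held 84.9, 92.8, 98.8 and 125 CPM of ABCC3. Sal libraries held 22.2, 19.1, 18.7 and 33.9 CPM. With Das the values were 46.5, 44.9, 38.5 and 70.8 CPM, and with S + D they were 25.1, 28.1, 29.3 and 38.0 CPM. All 12 treated libraries lay below all 4 control libraries, and the unnumbered library was the highest of its group in each case. ABCC3 fell by 2.11 on the log2 scale with Sal (SE 0.218, adjusted p = 3.51e-07, edgeR), a level 4.32-fold lower, by 1.01 with Das (SE 0.211, adjusted p = 0.00163) and by 1.75 with S + D (SE 0.215, adjusted p = 1.83e-06).

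The fall of ABCC3 had begun by 24 h. Control libraries held 109, 118, 119 and 114 CPM at that time, and Sal libraries 107, 96.5, 96.2 and 62.6 CPM. Das libraries held 85.8, 77.7, 80.8 and 62.6 CPM, and S + D libraries 56.6, 60.7, 57.7 and 46.7 CPM. The 3 treated groups lay below control without overlap. Only S + D passed the test, where ABCC3 fell by 1.02 (SE 0.148, adjusted p = 4.02e-05, edgeR). The change with Das was -0.56 (SE 0.147, adjusted p = 0.0104) and with Sal -0.35 (SE 0.147, adjusted p = 0.125). Same-numbered libraries deviated together at 24 h, though some pairs with different labels did too, with correlations up to 0.602. With the replicate number as a block both passed, at adjusted p = 0.000151 for Das and 0.00707 for Sal. In the numbered libraries alone the change was -0.47 with Das (adjusted p = 3.23e-06) and -0.19 with Sal (adjusted p = 0.0162).

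ABCC1 was measured at 6.50 ± 0.552 CPM per kb in control at 24 h and 7.08 ± 0.716 at 72 h (SD, n = 4). It lies at chr16:16042995-16237114 on the plus strand, next to ABCC6. Its 72 h control libraries held 60.4, 62.7, 69.7 and 54.6 CPM. The Sal libraries held 41.2, 33.4, 36.0 and 34.6 CPM, the Das libraries 41.2, 35.2, 42.9 and 41.5 CPM, and the S + D libraries 34.6, 43.6, 44.6 and 37.3 CPM. No treated library reached the lowest control library. ABCC1 fell by 0.79 with Sal (SE 0.118, adjusted p = 1.70e-05, edgeR), by 0.63 with Das (SE 0.118, adjusted p = 0.000687) and by 0.65 with S + D (SE 0.118, adjusted p = 0.000119). At 24 h it was called in none of the 3 groups, with S + D at -0.25 (adjusted p = 0.0978), although in the numbered libraries alone that change was -0.37 (adjusted p = 9.58e-05).

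ABCC4 lay at 3.35 ± 0.509 CPM per kb in control at 24 h and 4.10 ± 0.610 at 72 h (SD, n = 4), from a gene at chr13:95672089-95953729 on the minus strand. At 72 h its control libraries held 36.5, 31.9, 30.7 and 42.3 CPM and its Sal libraries 79.0, 89.7, 92.7 and 77.9 CPM. The Das libraries held 41.7, 38.8, 22.3 and 31.3 CPM, and the S + D libraries 68.5, 75.4, 77.8 and 68.0 CPM. Every Sal and S + D library exceeded every control library, whereas Das overlapped control. ABCC4 rose by 1.25 with Sal (SE 0.160, adjusted p = 3.22e-06, edgeR), a 2.37-fold higher level, and by 1.02 with S + D (SE 0.159, adjusted p = 2.48e-05). The change with Das was -0.08 (95% interval -0.42 to 0.25, adjusted p = 0.713). At 24 h Das lay below control without overlap, at 22.1, 20.9, 23.0 and 19.2 CPM against 26.6, 28.2, 25.5 and 35.3 CPM. That change was -0.42 (SE 0.129, adjusted p = 0.0263), and it passed with the replicate block (adjusted p = 0.00610) but not in the numbered libraries alone (-0.25, adjusted p = 0.0160).

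ABCC2 was far lower than these, at 0.168 ± 0.0300 CPM per kb in control at 72 h (SD, n = 4), from chr10:101542397-101612351 on the plus strand. Its 72 h control libraries held 1.41, 1.38, 0.973 and 1.51 CPM. The Sal libraries held 3.08, 3.68, 4.11 and 2.77 CPM, the Das libraries 2.27, 1.72, 1.80 and 3.38 CPM, and the S + D libraries 1.70, 3.19, 3.40 and 4.10 CPM. The 3 treated groups lay above control without overlap. ABCC2 rose by 1.35 with Sal (SE 0.277, adjusted p = 0.000369, edgeR) and by 1.22 with S + D (SE 0.276, adjusted p = 0.000860). With Das the change was 0.80 (SE 0.278, adjusted p = 0.0339), which of the alternatives run passed only when all 32 libraries were fitted together (adjusted p = 0.00832).

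ABCG2 (breast cancer resistance protein), at chr4:89011302-89152780 on the minus strand, was close to the limit of detection. Each library's count of 3, the largest that an observed count of 0 allows, corresponds to 0.0701 to 0.117 CPM. The 72 h control libraries held 0, 1, 1 and 2 counts of ABCG2, the Sal libraries 13, 10, 2 and 6, the Das libraries 5, 7, 11 and 12, and the S + D libraries 17, 19, 23 and 8. Every treated library lay above control in CPM, although Sal replicate 3 held no more counts than the highest control library. From the summed counts, the ratio to control was 8.64 with Sal (31 against 4 counts, exact 95% interval 3.05 to 33.7), 9.25 with Das (35 against 4 counts, 3.31 to 35.8) and 17.0 with S + D (67 against 4 counts, 6.34 to 64.3), intervals that cover counting error only. ABCG2 rose at 72 h with Sal (adjusted p = 0.00137, edgeR), Das (adjusted p = 0.00302) and S + D (adjusted p = 4.27e-05). It passed the filter on low counts through the groups where it is high and so had to differ. The Das call was lost without control replicate 1, 2 or 3, with fitted changes of 2.73, 3.03 and 3.04 and adjusted p up to 0.0107. At 24 h ABCG2 was under the filter, with 0 to 7 counts per library, and the exact permutation tests gave p from 0.200 to 0.657.

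PPM1K, a mitochondrial phosphatase gene of branched-chain amino acid catabolism, lies 25992 bases upstream of ABCG2 on the same strand. Its 72 h control libraries held 1.44, 1.53, 1.5 and 1.59 CPM. The Sal libraries held 61.2, 65.2, 67.8 and 42.7 CPM, the Das libraries 31.5, 27.0, 6.65 and 12.6 CPM, and the S + D libraries 51.5, 46.7, 52.7 and 37.4 CPM. PPM1K rose by 5.27 with Sal (SE 0.390, adjusted p = 1.71e-08, edgeR), by 3.66 with Das (SE 0.371, adjusted p = 2.46e-06) and by 4.93 with S + D (SE 0.386, adjusted p = 1.89e-08). It had also risen at 24 h, by 3.12, 2.12 and 3.61, when ABCG2 held few reads in every group. Within the Das group at 72 h, replicate 3 held the lowest PPM1K and the highest ABCG2 level. In the S + D group the libraries had the same order for both genes, highest in replicate 3 and lowest in the unnumbered library. In the Sal group replicate 3 held the highest PPM1K and the lowest ABCG2 level. The strand setting of the counting is not given in the sources used here, and the part of PPM1K in the ABCG2 counts was not tested. PKD2, the neighbour on the other side, fell by 0.55 with Sal at 72 h (adjusted p = 0.000605) and changed by 0.22 with Das (adjusted p = 0.160) and -0.20 with S + D (adjusted p = 0.140).

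**Figure D2:**
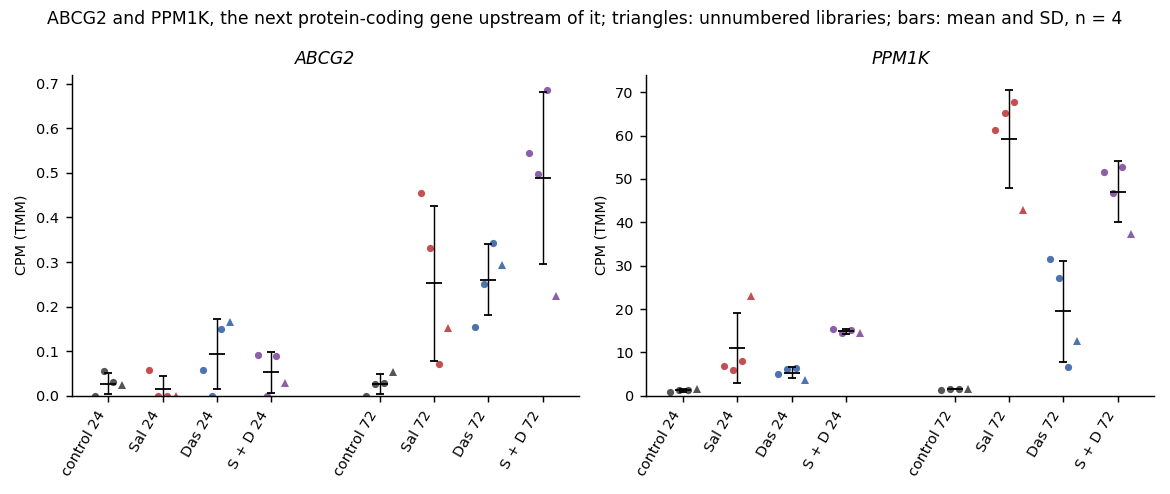
Level of ABCG2 (left) and PPM1K (right) in every library, in CPM with TMM factors, by group and hours; triangles are the unnumbered libraries and bars the mean and SD of 4 libraries. Both are higher in the treated groups at 72 h, with PPM1K at up to 67.8 CPM and ABCG2 at up to 0.686 CPM, and PPM1K is already higher at 24 h.

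ABCB1 (chr7:87132333-87342639, minus strand) was low throughout, at 0.187 ± 0.0517 CPM per kb in control at 24 h (SD, n = 4). The 24 h control libraries held 1.06, 0.960, 1.10 and 1.69 CPM, the Sal libraries 0.648, 0.589, 0.595 and 0.476 CPM, the Das libraries 0.750, 0.801, 0.792 and 1.06 CPM, and the S + D libraries 0.211, 0.575, 0.389 and 0.586 CPM. Sal and S + D lay below control without overlap, and Das overlapped it. ABCB1 fell by 1.42 with S + D (SE 0.282, adjusted p = 0.000684, edgeR), a call lost when all 32 libraries were fitted together (-1.45, adjusted p = 0.0170). The change with Sal was -1.07 (SE 0.273, adjusted p = 0.0152), which passed with the replicate block (adjusted p = 0.00478) and was -0.74 in the numbered libraries alone (adjusted p = 0.0314). At 72 h ABCB1 passed in no treated group, with Sal at -1.04 (SE 0.638, adjusted p = 0.164) and S + D at 0.05 (SE 0.591, adjusted p = 0.945). The 72 h Sal libraries held 3, 6, 2 and 32 counts, so the unnumbered library set that group's mean, and without it the change was -2.34 and passed. The unnumbered library was the highest of its group for ABCB1 in 6 of 8 groups.

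ABCC5 (MRP5, an exporter of cyclic nucleotides) and ABCC10 (MRP7, an exporter of lipophilic drugs such as taxanes) were well measured and changed less. At 24 h the ABCC5 control libraries held 42.2, 45.4, 45.5 and 52.1 CPM and the S + D libraries 57.2, 59.1, 54.9 and 49.3 CPM, which overlap. The change was 0.28 (SE 0.0850, adjusted p = 0.0119, edgeR), and it passed with the replicate block (adjusted p = 0.00555) in the numbered libraries alone (0.38, adjusted p = 7.81e-06), and without the unnumbered library of control (0.33) or of S + D (0.34). With Das at 24 h the ABCC5 change of 0.22 (adjusted p = 0.0725) likewise passed in the numbered libraries (0.33, adjusted p = 6.16e-05). At 72 h ABCC5 changed by 0.39 with Das (adjusted p = 0.0418) and by 0.48 in the numbered libraries (adjusted p = 0.00856), and leaving out the unnumbered control library alone also made it pass (0.54). ABCC10 at 72 h held 36.2, 38.2, 48.7 and 55.6 CPM in control and 69.2, 55.9, 52.6 and 76.9 CPM with Sal, groups that overlap. Its change was 0.49 with Sal (SE 0.173, adjusted p = 0.0191), which passed in the numbered libraries (0.51, adjusted p = 0.00818) and without the unnumbered control library (0.61). With S + D the change was 0.45 (adjusted p = 0.0299), which passed without S + D replicate 1 (0.56). At 24 h ABCC10 changed by -0.24 with S + D (adjusted p = 0.0484), and by -0.30 in the numbered libraries (adjusted p = 0.00128). ABCC10 shares 76 exon bases with DLK2 on the opposite strand, 0.94% of its exon length, and DLK2 itself rose at 72 h from 0.614 CPM to 3.12 CPM with Sal (2.32, adjusted p = 1.52e-06) and 1.82 CPM with S + D (1.54, adjusted p = 0.000111). With Das it was at 0.516 CPM (-0.25, adjusted p = 0.552).

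ABCC6, an exporter linked to ATP release and to pseudoxanthoma elasticum, and ABCB4 were, with ABCG2, the weakest members in control cells. Of the 50-base windows in ABCC6 transcripts, 19.6% also occur in transcripts of its pseudogenes, so its counts are uncertain. The 72 h Das libraries held 16, 11, 12 and 18 counts of ABCC6 against 5, 5, 4 and 3 in control, groups without overlap. ABCC6 rose by 1.78 with Das (SE 0.481, adjusted p = 0.00899, edgeR), and it passed the filter through the Das libraries, so it had to differ. DESeq2 gave an adjusted p of 0.0112. The call was lost in the numbered libraries alone (1.61, adjusted p = 0.0217) and without any 1 of the 8 libraries other than Das replicate 3, with changes from 1.62 to 1.93 and adjusted p up to 0.0291. At 24 h ABCC6 was under the filter, with 6, 8, 3 and 13 counts with Das and 7, 8, 4 and 6 with S + D against 2, 1, 1 and 2 in control. Both comparisons gave an exact permutation p of 0.0286, the smallest that 4 against 4 allows, and an adjusted p of 0.171 over the 12 member and treatment pairs tested this way.

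ABCB4 held 8 counts or fewer in every library except 1, with 9. At 72 h the control libraries held 5, 4, 8 and 1 counts, the Sal libraries 0, 0, 1 and 3, and the S + D libraries 0, 0, 0 and 2. The ratio of summed counts to control was 0.248 with Sal (exact 95% interval 0.0610 to 0.752, counting error only) and 0.113 with S + D (0.0127 to 0.471). The exact permutation p was 0.0857 with Sal and 0.0571 with S + D, with adjusted p of 0.257 and 0.229. ABCB1 and ABCB4 share 1.83% and 1.5% of their windows with each other, which the counting could split.

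The number of members called was set against all genes. At 24 h 7 of the 10 members passed the filter, since ABCB4, ABCC6 and ABCG2 did not. The counts below come from a fit that holds no term for the replicate number. Here and in the later comparisons, the shares of all genes are for edgeR at an adjusted p under 0.01. No share is given for the counts at an unadjusted p or by DESeq2, so nothing is read from those counts. With that number as a block, more members passed for Sal and for Das, as given in the closing section. With Sal 0 of 7 were called by edgeR (3 at an unadjusted p under 0.05, and 1 by DESeq2), beside 4.55% of 16357 genes higher and 2.23% lower. With Das 0 of 7 were called (3 at an unadjusted p under 0.05, and 1 by DESeq2), beside 6.99% higher and 6.88% lower. With S + D 2 of 7 fell and 0 rose, beside 17.1% higher and 16.5% lower. The median change of the members tested with S + D was -0.24, beside 0.04 over all genes.

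At 72 h 9 members were tested, ABCB4 being under the filter. With Sal 3 rose and 2 fell, beside 26.3% of 16682 genes higher and 26.8% lower. With Das 2 rose and 2 fell, beside 10.5% higher and 9.36% lower. With S + D 3 rose and 2 fell, beside 27.0% higher and 27.9% lower. ABCG2 is among the members called in each of the 3 and ABCC6 among those called with Das, and both had to differ once they passed the filter, so nothing is read from these shares. For Sal the members' median change of -0.08 stood beside 0.00 over all genes, for Das -0.06 beside 0.02, and for S + D 0.45 beside 0.01. These medians include ABCG2 and ABCC6, at 3.92 and 1.07 with S + D, so nothing about the family is read from them either. The comparisons of a time point share their 4 control libraries. The plot of changes by time and treatment shows each estimate with its interval.

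**Figure D3:**
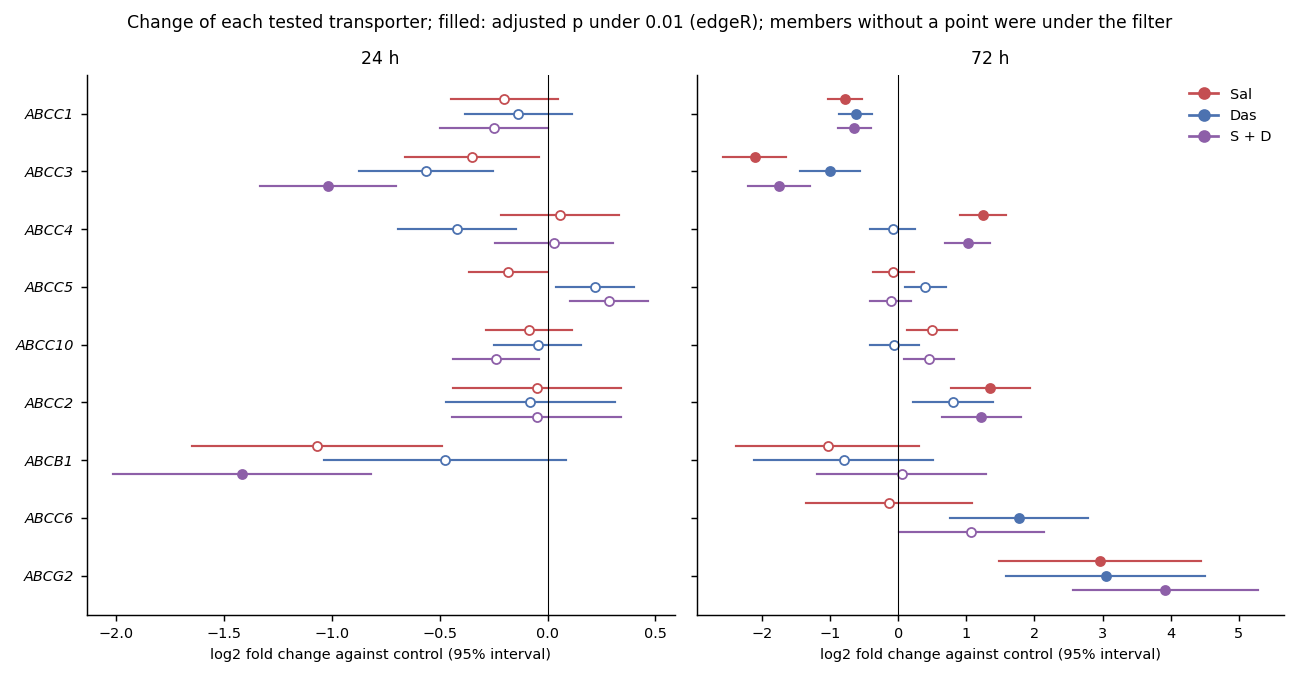
Log2 fold change against the control of the same time for each transporter that passed the filter, with 95% intervals, at 24 h (left) and 72 h (right; the horizontal scales differ). Filled points have an adjusted p under 0.01; ABCC3 and ABCB1 are filled with S + D at 24 h, and ABCC1, ABCC3 and ABCG2 in all 3 treatments at 72 h.

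The combination was next compared with each drug alone. At 24 h S + D differed from Sal in ABCC3 (-0.67, SE 0.147, adjusted p = 0.00382, edgeR) and ABCC5 (0.47, SE 0.0852, adjusted p = 0.000901), 2 of 7 members beside 12.9% of all genes. Both calls were lost when only the 8 libraries compared were fitted (adjusted p = 0.0240 and 0.0125). The ABCC3 call was also lost without Sal replicate 1 (-0.61) or 2 (-0.63), or S + D replicate 1 (-0.68), 3 (-0.69) or unnumbered (-0.59). In the numbered libraries ABCC1 passed as well (-0.24, adjusted p = 0.00606). Against Das, 0 of 7 were called by edgeR or DESeq2 (3 at an unadjusted p under 0.05), beside 8.49% of all genes. With the replicate block, ABCC3 (-0.45, adjusted p = 0.00202) and ABCC4 (0.44, adjusted p = 0.00445) passed, and in the numbered libraries 5 of 7 members did. The share of all genes called under these settings is not given here, so nothing is read from those counts.

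At 72 h S + D and Sal differed in 0 of 9 members by edgeR or DESeq2 (1 at an unadjusted p under 0.05), beside 3.01% of all genes. The 95% intervals of the difference were -0.09 to 0.81 for ABCC3, -0.56 to 0.10 for ABCC4 and -0.11 to 0.39 for ABCC1. These intervals hold differences in both directions, so the lack of a call does not show equal levels. Against Das, S + D held more ABCC4 (1.10, SE 0.159, adjusted p = 3.62e-05, edgeR), less ABCC3 (-0.75, SE 0.211, adjusted p = 0.00803) and less ABCC5 (-0.51, SE 0.143, adjusted p = 0.00789), 3 of 9 members beside 32.1% of all genes. Only the ABCC4 difference was called in the fit of the 8 libraries compared. Leaving out Das replicate 1 (-0.76), 2 (-0.77) or unnumbered (-0.51), or S + D replicate 1 (-0.67), 2 (-0.71) or 3 (-0.73), ended the ABCC3 call. The ABCC5 call ended without Das replicate 2 (-0.49), 3 (-0.48) or unnumbered (-0.43), or S + D replicate 1 (-0.40), 2 (-0.52) or 3 (-0.54). ABCC10 differed by 0.51 (adjusted p = 0.0234), which passed without the unnumbered Das library (0.63) or S + D replicate 1 (0.62).

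An interaction asks whether the log2 change with S + D differs from the sum of the changes with each drug. At 24 h 0 of 7 members showed one by edgeR or DESeq2 (1 at an unadjusted p under 0.05), beside 0.0306% of all genes. At 72 h ABCC1 (0.77, SE 0.166, adjusted p = 0.00479, edgeR) and ABCC3 (1.37, SE 0.298, adjusted p = 0.00511) did, 2 of 9 members beside 7.52% of all genes. Both terms were positive, so the fall with S + D was smaller than the sum of the falls with Sal and Das. The ABCC1 call ended without control replicate 2 or 3, Sal replicate 2 or 3, Das replicate 1 or 2, or S + D replicate 2 or 3, with terms from 0.71 to 0.78 and adjusted p up to 0.0140. The ABCC3 call ended without control replicate 3 or unnumbered, Sal replicate 1, 2 or 3, Das replicate 1 or 2, or S + D unnumbered, with terms from 1.23 to 1.37 and adjusted p up to 0.0142.

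The change with treatment was also compared between times, in a fit of all 32 libraries. With Sal the change at 72 h exceeded that at 24 h upwards for ABCC2 (1.41, SE 0.330, adjusted p = 0.00146, edgeR) and ABCC4 (1.19, SE 0.211, adjusted p = 7.79e-05), and downwards for ABCC3 (-1.75, SE 0.266, adjusted p = 1.25e-05) and ABCC1 (-0.58, SE 0.159, adjusted p = 0.00586), 4 of 9 members beside 21.9% of 17227 genes. The ABCC1 call ended without control replicate 1 or unnumbered at 24 h, Sal replicate 1, 2 or 3 at 24 h, control replicate 2 or 3 at 72 h, or Sal replicate 2, 3 or unnumbered at 72 h, with values from -0.59 to -0.50 and adjusted p up to 0.0200. ABCC10 was at 0.59 (adjusted p = 0.0255) and passed in the numbered libraries (0.62, adjusted p = 0.00439) and without the unnumbered 72 h control library (0.70). With S + D the difference was upwards for ABCC2 (1.32, SE 0.330, adjusted p = 0.00352), ABCC4 (1.04, SE 0.211, adjusted p = 0.000532) and ABCC10 (0.74, SE 0.203, adjusted p = 0.00719), 3 of 9 beside 16.3%. The ABCC10 call ended without 11 of the 16 libraries in turn, the exceptions being control replicate 1 and S + D unnumbered at 24 h, and control replicate 3, control unnumbered and S + D replicate 1 at 72 h, with values from 0.61 to 0.74 and adjusted p up to 0.0244. ABCC3 was at -0.68 (adjusted p = 0.0526) and passed in the numbered libraries (-0.77, adjusted p = 4.24e-05). The ABCC2 call with S + D ended without control replicate 3 (1.2) or S + D unnumbered (1.14) at 72 h. These differences between times include the change of the control. From 24 to 72 h the control mean went from 2.20 to 1.32 CPM for ABCC2 and from 62.4 to 44.7 CPM for ABCC10. With S + D the mean went from 2.07 to 3.10 CPM for ABCC2 and from 51.6 to 61.7 CPM for ABCC10.

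With Das 0 of 9 members differed between times by edgeR or DESeq2 (2 at an unadjusted p under 0.05), beside 0.226% of all genes. In the numbered libraries alone ABCC3 did (-0.61, adjusted p = 0.00358). Control cells at 72 h differed from control cells at 24 h in 0 of 9 members by edgeR or DESeq2 (4 at an unadjusted p under 0.05), beside 2.76% of all genes. The lowest adjusted p-values belonged to ABCC5 (-0.41, adjusted p = 0.0288) and ABCC10 (-0.48, adjusted p = 0.0375). Both passed in the numbered libraries alone (-0.49, adjusted p = 0.000636, and -0.57, adjusted p = 0.00187), and ABCC5 also passed without the unnumbered 72 h control library (-0.55). ABCC2 came next, with a control change of -0.74 (adjusted p = 0.0545, edgeR).

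Levels of different members were compared per kilobase of the exon union. In control at 24 h the order was ABCC3, ABCC10, ABCC1, ABCC5, ABCC4, ABCC2, ABCB1, ABCB4, ABCC6 and ABCG2. The ranges of 4 libraries overlapped between ABCC10 and ABCC1, ABCC5 and ABCC4, ABCC2 and ABCB1, ABCB4 and ABCC6, and ABCC6 and ABCG2. The ranges alone do not order these neighbours, since all members were measured in the same libraries. Within a library, ABCC10 exceeded ABCC1, ABCC5 exceeded ABCC4 and ABCC2 exceeded ABCB1 in 4 of 4 control libraries, whereas ABCB4 exceeded ABCC6 in 3 and ABCC6 exceeded ABCG2 in 2. ABCC3 made up 35.1% ± 0.936 (SD, n = 4) of the summed level of the 10 members in control at 24 h and 34.0% ± 1.89 at 72 h. In Sal at 72 h its share was 8.70% ± 2.15 and that of ABCC4 was 35.5% ± 4.74, against 13.5% ± 1.67 for ABCC4 in control. With S + D the shares were 11.5% ± 1.30 for ABCC3 and 31.0% ± 3.35 for ABCC4. The per-library ratio of ABCC4 to ABCC3 ranged from 0.346 to 0.478 in control at 72 h, from 2.56 to 5.52 with Sal, from 0.492 to 1.00 with Das and from 1.99 to 3.04 with S + D. The summed level itself at 72 h was 30.5 ± 3.58 CPM per kb in control (SD, n = 4), 27.8 ± 1.43 in Sal libraries, 23.6 ± 2.68 in Das libraries and 27.2 ± 3.01 in S + D libraries, and each treated range overlapped control. At 24 h it was 34.1 ± 1.59 in control, 29.9 ± 1.89 in Sal libraries, 28.8 ± 1.98 in Das libraries and 26.1 ± 0.481 in S + D libraries. The 24 h Das and S + D libraries lay below all 4 control libraries, and Sal overlapped control. These sums were not tested.

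**Figure D4:**
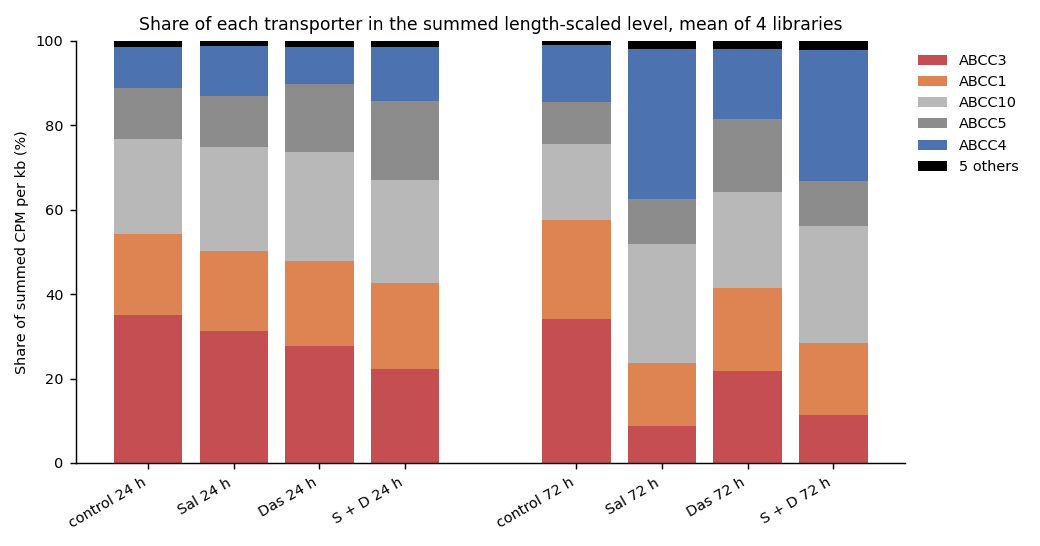
Share of each transporter in the summed length-scaled level (CPM per kilobase) of the 10 members, as the mean of 4 libraries per group; the bars start at 0 and the 5 lowest members are drawn together. ABCC3 takes 34.0% in control at 72 h and 8.70% with Sal, and ABCC4 13.5% and 35.5%.

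The companion lists were chosen with results known and are described by counts. Of 25 other ABC genes tested at 72 h, 6 rose and 9 fell with S + D (27.0% and 27.9% of all genes), with a median of -0.15. ABCA1 and ABCG1, cholesterol exporters, fell by 4.24 (SE 0.701, adjusted p = 4.47e-05, edgeR) and by 2.98 (SE 0.370, adjusted p = 2.09e-06). ABCB8, a mitochondrial transporter, rose by 1.51 (adjusted p = 1.66e-05) from 32.7 ± 6.66 to 94.2 ± 22.2 CPM (SD, n = 4), and ABCB6, a porphyrin transporter, by 1.25 (adjusted p = 0.000476). With Sal 8 of these genes rose and 8 fell (26.3% and 26.8% of all genes), and with Das 0 rose and 6 fell (10.5% and 9.36%).

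Of 23 regulators of transporter genes, 9 rose and 5 fell with S + D at 72 h, beside 27.0% and 27.9% of all genes. VDR, the vitamin D receptor, fell by 1.72 (adjusted p = 8.27e-09, edgeR) and HIF1A, the hypoxia factor, by 1.41 (adjusted p = 0.000146). PPARA, a fatty-acid receptor, rose by 0.92 (adjusted p = 5.45e-05), and ESR2, the estrogen receptor β gene, by 4.03 (adjusted p = 1.76e-07) from 0.0691 to 1.22 CPM. ESR2 was close to the limit of detection in control. It passed the filter on low counts only through treated libraries, so its call was largely fixed by the filter. Of 27 glutathione and drug-metabolising enzymes, 7 rose and 13 fell, beside the same 27.0% and 27.9%. CYP1A1, an oxidase induced by aryl hydrocarbons, rose by 3.60 (adjusted p = 6.52e-07) and GSTM2, a glutathione transferase, by 2.20 (adjusted p = 1.69e-06). The sulfotransferase SULT2B1 fell by 2.69 (adjusted p = 3.83e-08) and the glutathione transferase GSTO1 by 2.54 (adjusted p = 5.46e-07).

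Of 19 drug uptake carriers, 6 rose and 7 fell with S + D at 72 h, beside 27.0% and 27.9% of all genes. The prostaglandin carrier SLCO2A1 fell by 5.98 (adjusted p = 1.80e-08, edgeR) from 10.1 to 0.158 CPM, and the nucleoside carrier SLC28A3 fell by 2.86 (adjusted p = 3.19e-06). The monocarboxylate carrier SLC16A1 rose by 1.2 (adjusted p = 2.46e-06) and the thiamine carrier SLC19A3 by 0.97 (adjusted p = 0.00180). Of 12 anchoring, trafficking and vault genes, 1 rose and 4 fell, beside the same shares. CAV1 (caveolin) fell by 1.5 (adjusted p = 5.92e-07), the membrane linker EZR by 0.73 (adjusted p = 2.78e-06), and the kinase PIM1 rose by 1.30 (adjusted p = 9.82e-05).

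Among the protein-coding genes next to members, CLDN10, a tight-junction gene beside ABCC4, fell by 1.77 with S + D at 72 h (SE 0.178, adjusted p = 2.20e-07, edgeR) while ABCC4 rose. ANKRD40, which lies 945 bases from ABCC3, was at 41.4 CPM in control and 42.0 CPM with S + D (adjusted p = 0.969). SLC25A40 beside ABCB1 fell by 0.65 (adjusted p = 0.000884) and CROT beside ABCB4 fell by 1.04 (adjusted p = 0.000872). DNMBP beside ABCC2 fell by 0.53 (adjusted p = 0.000641) and ZNF318 beside ABCC10 by 0.44 (adjusted p = 0.00793). CUTC beside ABCC2 (0.26, adjusted p = 0.0484), PARL beside ABCC5 (0.39, adjusted p = 0.0422) and TJAP1 beside ABCC10 (0.36, adjusted p = 0.0206) were not called. Neither were CEP20 beside ABCC1 (-0.34, adjusted p = 0.104) and NOMO3 beside ABCC6 (0.04, adjusted p = 0.841), and CACNA1G, SOX21 and HTR3D, beside ABCC3, ABCC4 and ABCC5, were under the filter.

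The genes whose group means followed a member most closely were ranked by Pearson's r of mean log2(CPM + 0.5) over the 8 groups, among 11335 genes with a mean of at least 5 CPM. They were SEPHS1 (0.996) and CCHCR1 (0.996) for ABCC3, TNIP1 (0.988) and SEC14L2 (0.980) for ABCC1, PARM1 (0.995) and PDIA4 (0.991) for ABCC4, and ATPAF1 (0.971) and SH3BP5-AS1 (0.963) for ABCC2. ABCC5 was followed by PDZD11 (0.965) and ENOSF1 (0.963), and ABCC10 by CNOT3 (0.970) and C1orf35 (0.963). The low members were followed by ZBTB17 (0.971) and PPP1R12C (0.969) for ABCB1, TMEM45B (0.966) and RPL13P12 (0.965) for ABCC6, and PHF10 (0.991) and ZNF174 (0.978) for ABCG2. These values describe 8 points that share libraries, are the highest of many genes, and carry no test.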

How the data were processed

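The authors deposited 1 table of read counts per gene, whole numbers with no normalization, for 32 libraries. The submitters' processing notes name bcl2fastq 2.19, STAR 2.5.2, Cufflinks 2.1.1, DESeq2 and GRCh37, while the counting program, its annotation and its strand setting are not given in the sources used here. All 32 columns were used. Identifiers were paired with GENCODE names for GRCh37 (46537 of 48804 matched), and with RefSeq synonyms 173 of 174 list genes were found. PECAM1 was not matched and is not analysed here.

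Counts were tested with edgeR 4.0.16 in R 4.3.3 (TMM factors, filterByExpr at a minimum count of 10, quasi-likelihood F-test, Benjamini-Hochberg over all genes), in 1 fit of 16 libraries per time point and 1 fit of 32 libraries for comparisons between times. A gene was called at an adjusted p under 0.01. SE is the absolute log2 fold change over the root of F. CPM are counts over the library total times its TMM factor, and CPM per kb divide by the exon union. Members under the filter were tested by exact two-sided permutation of mean CPM. Ratios of summed counts have exact binomial intervals at 95%. The tests were checked on simulated data. DESeq2 1.42.0 and the other settings are alternatives.

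Same-numbered libraries correlated in their deviations from group means at 0.254 to 0.570 over 18 pairs at 24 h, and at -0.144 to 0.480 over 18 pairs at 72 h. Pairs with different labels correlated at -0.694 to 0.602 at 24 h and at -0.688 to 0.563 at 72 h. These ranges overlap, so no pairing by number is read from them. The main fits hold no term for the replicate number, and the fits with the replicate block are alternatives. The study describes its replicates as biological, and the labels state no shared culture, batch or day for a number. The members and lists were chosen with earlier results of these data known. All 10 members are named. From each list, the 2 largest rises and 2 largest falls with S + D at 72 h are named among called genes with a group mean of at least 1 CPM, along with the nearest protein-coding gene on each side of a member and genes sharing exon bases with it. For each member in the fit of 32 libraries, the 2 genes of most like pattern are named, from those that had a mean of at least 5 CPM. PPM1K was chosen for display by library after its values were seen. Totals of 25692561 to 42769687 counts leave single-digit counts for ABCB4, ABCC6 and ABCG2 in many libraries. Promoter windows were read from the GRCh37 genome at the canonical GENCODE starts. The windows of the other 7 members are not reported here.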

Additional observations from a re-analysis of the deposited data

Results flagged for a closer look

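A total of 64 groups of 4 libraries were examined for a library that stands apart from the other 3, by Dixon's criterion at 95%, which chance passes in about 1 of 20 groups. The unnumbered library met it in 2 groups. For ABCB1 in Das at 24 h, its gap to the nearest library was 0.837 of the group's range, since it held 1.06 CPM and the others 0.750 to 0.801 CPM. For ABCC2 in Sal at 24 h, the gap was 0.876 of the range, since it held 1.46 CPM and the others 2.32 to 2.44 CPM.

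Changes that differed between conditions by an edgeR test of the difference are listed next, with adjusted p-values over all genes. The change with Sal was larger at 72 h than at 24 h for ABCC2 (1.41, adjusted p = 0.00146) and ABCC4 (1.19, adjusted p = 7.79e-05), and further down for ABCC3 (-1.75, adjusted p = 1.25e-05) and ABCC1 (-0.58, adjusted p = 0.00586). With S + D the same held upwards for ABCC2 (1.32, adjusted p = 0.00352), ABCC4 (1.04, adjusted p = 0.000532) and ABCC10 (0.74, adjusted p = 0.00719). At 72 h the Sal and Das changes did not add for ABCC1 (0.77, adjusted p = 0.00479) and ABCC3 (1.37, adjusted p = 0.00511).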

How the results depend on the processing

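No member that was called changed sign under any alternative run. Of the refitted log2 fold changes outside the leave-one-out fits, 887 stayed on the same side of the threshold, 59 newly passed it and 11 no longer did, and of the leave-one-out values 1324, 10 and 66 did so. All 80 group levels moved by less than 1 SD with DESeq2's size factors, and the count of 2 exact tests with an unadjusted p under 0.05 held.

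The number of members called moved by more than 1.5 times as follows, and the cause was not tested. Shares of all genes called in these fits and in the leave-one-out fits are not given here. Nothing about the members is therefore read from these counts. With the replicate block it was 2 for Sal at 24 h (0 in the main setting), 2 for Das at 24 h (0), 2 for S + D against Das at 24 h (0) and 2 for control at 72 h against 24 h (0). With a batch term for the unnumbered libraries it was 2 for Sal at 24 h, 2 for Das at 24 h, 4 for S + D at 24 h (2 before), 3 for S + D against Das at 24 h and 2 for control between times. In the numbered libraries only it was 2 for Das at 24 h, 5 for S + D at 24 h, 5 for S + D against Das at 24 h, 1 for the Das response between times (0) and 2 for control between times. With DESeq2 it was 1 for Sal at 24 h and 1 for Das at 24 h. With RLE factors, without a filter, or with only the groups compared it was 1 for Das at 24 h. The groups compared alone gave 0 for S + D against Sal at 24 h (2) and 1 for S + D against Das at 72 h (3), and all 32 libraries gave 1 for S + D at 24 h. At an adjusted p under 0.05 it was 1 for Sal, 2 for Das, 4 for S + D and 3 for S + D against Das at 24 h, and 2 for control between times. With a log2 fold change above 1.5 as well it was 0 for S + D and for S + D against Sal at 24 h, 2 for each of Sal, Das and S + D at 72 h, 0 for S + D against Das and for the interaction at 72 h, 1 for the Sal response and 0 for the S + D response between times.

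Leaving out 1 library at a time gave 1 to 2 calls for S + D against Sal at 24 h, 2 to 4 for Das at 72 h, 1 to 3 for S + D against Das at 72 h, 0 to 2 for the interaction at 72 h, 1 to 3 for the S + D response between times and 0 to 1 for control between times. At 72 h the replicate block also passed ABCC10 with Sal (adjusted p = 0.00138) and S + D (0.00305), and ABCC5 with Das (0.00355). ABCC10 in S + D against Das (0.00225) and, between times, ABCC10 in the Sal response (0.00173) did so too, though same-numbered libraries do not all correlate at 72 h. Without a filter, ABCC6 with Das at 72 h (0.0156), ABCC5 in S + D against Das at 72 h (0.0146), ABCC1 in the Sal response (0.0160) and ABCC10 in the S + D response (0.0156) no longer passed. Depth limits ABCB4, ABCC6 and ABCG2, where 3 counts are 0.0701 to 0.117 CPM.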
